A study of Mus musculus with 6 samples.

Results

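GATA and RUNX factors are DNA-binding proteins that set the identity of blood cells, epithelia and the heart. GATA factors bind the letters GATA through zinc fingers, while RUNX factors bind through a runt domain and need CBFB, a partner that does not touch DNA itself but steadies their grip on it. In the uterus GATA2 is known for acting with the progesterone receptor upstream of SOX17 and Indian hedgehog, and several of the other members mark leukocytes that populate the endometrium.

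The 10 genes Gata1 to Gata6, Runx1 to Runx3 and Cbfb were chosen by name and not by a cut on their values, but with earlier results of these data known. All their probes were read from whole mouse uteri that lack Sox17 in the epithelium. They make up 10 of 20145 genes named on the array and 13 of its 55681 probes; 7 of the genes have 1 probe and 3 have 2. The arrays compare 3 Sox17ed/ed uteri, in which an iCre recombinase driven from the Ltf locus removes floxed Sox17 from uterine epithelium, with 3 littermate Sox17f/f uteri that carry the floxed allele and no recombinase. All females were mated at 8 to 10 weeks with fertile males, and their uterine horns were taken at gestation day (GD) 3.5 after the embryos had been flushed out. Because the Ltf locus drives iCre in epithelium, Sox17 of endothelium and other cells is left intact, and because the tissue was whole uterus, fewer cells of a type and less RNA per cell cannot be told apart in any value here.

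Signals are given as log2 of the processed spot intensity after quantile normalization between the 6 arrays, and a log2 fold change is Sox17ed/ed minus Sox17f/f. A probe was tested when at least 3 of the 6 arrays measured it well above background, and a gene was called when its unadjusted limma p was under 0.01 and it differed at least 1.4-fold, the thresholds of the study's methods. Of the 14847 genes that could be tested, 12.5% were called, 6.04% as higher and 6.47% as lower in Sox17ed/ed uteri. Sox17 itself read -2.45 as a log2 fold change (standard error, SE, 0.09, limma adjusted p = 2.66e-05), and each Sox17ed/ed array lay below each Sox17f/f array. Between 60.7% and 65.7% of spots were well above background on the Sox17f/f arrays and between 56.8% and 59.4% on the Sox17ed/ed arrays. The 6 arrays lay on 1 slide with 1 genotype in each of its lines, so slide position and genotype cannot be told apart.

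Of the 10 genes, 9 could be tested, and Runx1 was the single one called, as lower in Sox17ed/ed uteri. Of all genes tested 12.5% were called, so a count of 1 in 9 is near the background. The study, whose methods do not name its test, lists Gata1 as well as Runx1 among its dysregulated genes. It places Gata1 with genes associated with uterine epithelium as a whole, and Runx1 with genes that respond to progesterone. Here Gata1 had an unadjusted limma p of 0.0362 and was not called. Of the 11 probes that could be tested, 2 were called, both of them Runx1, against 9.86% of all 32734 probes tested. The arrays of the genotypes did not overlap for 4 of the 9 genes, namely Gata1, Gata3, Gata6 and Runx1, whereas 40.6% of all genes tested had arrays that did not overlap, so this share of the members is near the background. The median log2 fold change was 0.045 over the 9 genes and -0.0016 over all genes tested. The median size of the difference, whatever its sign, was 0.36 for the 9 genes and 0.17 for all genes. The median SD between arrays of a genotype was 0.11 over all genes. For the 9 genes the SDs ran from 0.02 (Gata5, Sox17f/f) to 0.49 (Runx2, Sox17f/f). The part of this spread in the larger median size was not tested.

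**Figure D1:**
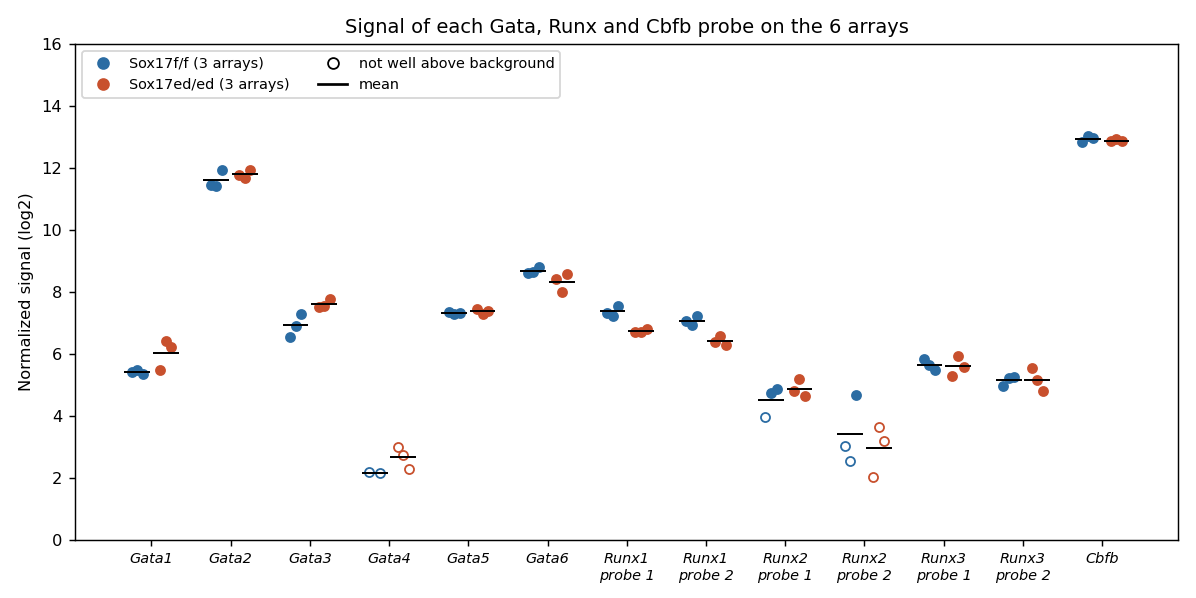
Normalized log2 signal (vertical axis) of the 13 probes of the 10 genes (horizontal axis) on the 3 Sox17f/f and 3 Sox17ed/ed arrays, with a line at each mean; open points were not well above background, and the Gata4 spot of Sox17f/f replicate 2 was left out as an outlier. Both Runx1 probes lie lower on every Sox17ed/ed array, Gata3 lies higher on every one, and Gata4 has no array well above background.

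RUNX1 is the master factor of definitive blood formation and is also made in hair follicle and mammary epithelium. Its brighter probe (A_51_P206585) read 7.32, 7.23 and 7.56 on the Sox17f/f arrays and 6.70, 6.70 and 6.79 on the Sox17ed/ed arrays. The genotypes did not overlap, and the lowest Sox17f/f array stood well clear of the highest Sox17ed/ed array. The mean fell from 7.37 ± 0.17 (SD, n = 3) to 6.73 ± 0.05 (SD, n = 3), a log2 fold change of -0.64 (SE 0.10, 95% interval -0.88 to -0.40, limma adjusted p = 0.00706), or 1.56-fold. The other Runx1 probe (A_55_P2183438), placed on a different transcript record of the gene, read 7.07, 6.92 and 7.22 against 6.39, 6.56 and 6.28. It gave -0.66 (SE 0.12, limma adjusted p = 0.0213 over all probes), again with no overlap. A two-sided exact permutation test over the arrays gave p = 0.1 for each probe, the smallest that 3 arrays against 3 allow. Leaving out each array in turn kept the value between -0.71 and -0.55, and normexp background correction gave -0.46, just under the 1.4-fold threshold (limma adjusted p = 0.00675).

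The 3 tested genes whose pattern over the 6 arrays was most like that of Runx1 were Ammecr1l, Mab21l3 and Insl6, with Pearson correlations of 0.9983, 0.9969 and 0.9965. These coefficients describe 6 arrays that split by genotype, so a gene with a similar step between Sox17f/f and Sox17ed/ed scores high whatever its function. They carry no test.

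RUNX2 is the driver of bone and cartilage development. Its brighter probe was close to background, and read 3.95, 4.73 and 4.87 on the Sox17f/f arrays, of which 2 were well above background, and 4.79, 5.20 and 4.63 on the Sox17ed/ed arrays. The genotypes overlapped, and the log2 fold change of 0.36 had an interval from -0.30 to 1.02 (limma adjusted p = 0.404). With Sox17f/f replicate 1 left out, the array that was not above background, the value was 0.079, and after normexp correction it was 0.060. The other Runx2 probe was well above background on 1 of the 6 arrays, Sox17f/f replicate 3, and was not tested. Of 12 bone and cartilage genes known to lie downstream of RUNX2, only Spp1, Col1a1, Alpl and Vegfa could be tested, and limma called 0 of them (12.5% of all genes tested were; 0 had an unadjusted p under 0.05), with Spp1 highest at 0.57 (limma adjusted p = 0.211) and Alpl lowest at -0.27 (limma adjusted p = 0.7995). Col1a1 and Vegfa are expressed far outside bone, and the osteoblast products Ibsp and Mmp13 were not well above background on any array.

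RUNX3 is known in cytotoxic T and natural killer cells. Its brighter probe read 5.83, 5.63 and 5.48 on the Sox17f/f arrays and 5.28, 5.92 and 5.58 on the Sox17ed/ed arrays. The genotypes overlapped widely, and the log2 fold change was -0.056 (95% interval -0.49 to 0.38, limma adjusted p = 0.861). The other probe read 4.98, 5.22 and 5.26 against 5.53, 5.15 and 4.81 and gave 0.011. The sign of Runx3 was not fixed by these arrays, since it also turned without Sox17f/f replicate 1, at 0.036, and without Sox17ed/ed replicate 1, at 0.10.

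CBFB, the shared partner of the RUNX proteins, was measured brightly. Its probe read 12.83, 13.03 and 12.96 on the Sox17f/f arrays and 12.87, 12.92 and 12.86 on the Sox17ed/ed arrays. The Sox17ed/ed values fell within the Sox17f/f range. The log2 fold change was -0.057 (SE 0.07, limma adjusted p = 0.640), with an interval from -0.24 to 0.12 that lies inside 1.4-fold in either direction, and normexp correction turned its sign, to 0.031.

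The promoters of the 3 RUNX genes share a short element made of the letters that RUNX proteins bind, and it is printed here because 1 of these genes was called and the other two were not. The RefSeq promoter table for GRCm38.p6 holds 11 promoters of 8 of the 10 genes, each covering 250 bases before to 50 bases after the annotated start; Gata4 and Gata6 have no entry. The RUNX letters TGTGGT or their complement ACCACA, searched on both strands, occurred in 16.8% of all 32851 promoters of the table. Among the members they occurred in 1 promoter each of Runx1, Runx2, Runx3 and Gata5. In each Runx gene a pair of copies stood 8 bases apart, read 5′ to 3′ on the strand of the gene, with the RUNX letters in capitals:
Runx1, chr16:92826025-92826054, minus strand: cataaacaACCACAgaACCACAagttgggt
Runx2, chr17:44814581-44814610, minus strand: caaacaACCACAgaACCACAagtgcggtgc
Runx3, chr4:135120505-135120534, plus strand: ccctcaACCACAgaACCACAaggccaggcc

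The copies began 28 and 36 bases downstream of the annotated start in Runx1, 23 and 31 bases downstream in Runx2, and 134 and 126 bases upstream in Runx3. Runx2 held another single copy 80 bases upstream, and Gata5 held 1 copy 175 bases upstream. The joined letters ACCACAGAACCACA occurred in 4 of the 32851 promoters (0.0122%), those of Runx1, Runx2 and Runx3 and that of Gm16225, a predicted gene whose window overlaps that of Runx3. The GATA letters AGATAA or TTATCT (11.2% of all promoters) and the SOX letters ATTGTT or AACAAT (10.7% of all promoters) were in 0 of the 11 member promoters. These are matches of letters, and say nothing of binding in the uterus.

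**Figure D2:**
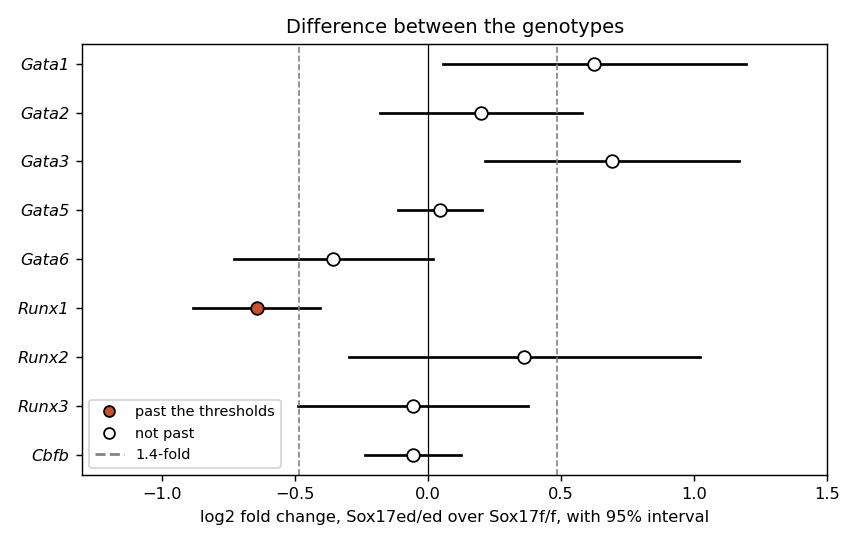
Log2 fold change (horizontal axis) of the 9 tested genes with its 95% interval from limma; dashed lines mark 1.4-fold in either direction and the filled point is past the thresholds. Runx1 at -0.64 is the one filled point, Gata3 at 0.69 and Gata1 at 0.62 lie past 1.4-fold on the other side with wider intervals, and Gata5 and Cbfb have intervals within the dashed lines.

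GATA2 is the member tied most closely to the uterus, where it is made in epithelium and stroma. Its probe read 11.45, 11.41 and 11.93 on the Sox17f/f arrays and 11.76, 11.68 and 11.93 on the Sox17ed/ed arrays. Sox17f/f replicate 3 was as high as the highest Sox17ed/ed array, and the other Sox17f/f arrays lay below all of them. The log2 fold change was 0.20 (SE 0.16, 95% interval -0.18 to 0.58, limma adjusted p = 0.429; two-sided exact permutation test, p = 0.4). Without Sox17f/f replicate 3 it was 0.36 (limma adjusted p = 0.0591), and without Sox17f/f replicate 2 it was 0.10.

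Sox17f/f replicate 3 was the highest of its genotype for 7 of the 11 tested probes of the Gata, Runx and Cbfb genes, and it was also the array with the largest share of spots well above background. These 7 were the probes of Gata2, Gata3, Gata6, Runx1 (both), Runx2 and 1 of Runx3. Leaving it out moved Gata2 and Gata3 up and Runx1 towards 0, at -0.55. The part of array quality in these differences was not tested.

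Around GATA2, 18 genes of the network of progesterone receptor, GATA2 and SOX17 were listed, partly from genes the study picked on these same samples, so their direction is not independent evidence. Of these 18, 10 were called, 2 higher and 8 lower, against 12.5% of all genes tested. The hedgehog ligand Ihh had -3.01 (SE 0.14, limma adjusted p = 6.63e-05), and its receptor Ptch1, which is also a target of the pathway, had -1.27. The gland factor Foxa2 had -4.51, the homeobox factor Msx1 had -0.95, and Sox17 was called as given above. On no Sox17ed/ed array were Areg and Lif well above background, and they were at least 13.0-fold and at least 4.37-fold lower, measured against the lowest signal well above background on each Sox17ed/ed array or the probe's own signal where that was higher. Fgf12 rose by 1.66 and Wnt4 by 1.61. Pgr, the receptor that stands beside GATA2 in this network, had a log2 fold change of 0.01 (limma adjusted p = 0.946). By immunohistochemistry the study found less PGR protein in epithelial and stromal cells of Sox17ed/ed uteri, whereas this value is RNA of whole uterus. Among the genes not called, the stromal growth factor Fgf9 was highest at 0.85 (limma adjusted p = 0.226) and Trp63 lowest at -0.12.

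GATA3 guides T helper and innate lymphoid cells and also luminal and stratified epithelia. Its probe read 6.53, 6.91 and 7.30 on the Sox17f/f arrays and 7.52, 7.54 and 7.76 on the Sox17ed/ed arrays. All Sox17ed/ed arrays were higher, and the Sox17f/f arrays were spread more widely among themselves. The means were 6.92 ± 0.38 (SD, n = 3) and 7.61 ± 0.14 (SD, n = 3), with a log2 fold change of 0.69 (SE 0.20, 95% interval 0.22 to 1.17). The unadjusted limma p of 0.0117 was just over the threshold of 0.01, and the limma adjusted p was 0.0579. Gata3 passed without Sox17f/f replicate 3, at 0.88 (limma adjusted p = 0.0145), and under 4 other settings, while leaving out any of the other arrays gave adjusted p values from 0.106 to 0.155.

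Lymphocyte and epithelial markers were read beside Gata3. Of 16 genes of T, natural killer and innate lymphoid cells, all tested, 3 rose and 0 fell. Of all genes tested, 6.04% were called as higher and 12.5% in either direction. At a limma adjusted p under 0.05, 2 of the 16 were higher, against 18.9% of all genes tested in either direction. The median log2 fold change of the 16 was 0.23, and 1 of them lay below 0. Their summed normalized signal was 7768 to 10334 on the Sox17f/f arrays and 11461 to 16257 on the Sox17ed/ed arrays. Among the genes that rose were the cytotoxic granule genes Gzmb (1.37, limma adjusted p = 0.0238) and Prf1 (0.56, limma adjusted p = 0.0502). The T-cell receptor chain Cd3e had 0.09 and Cd4 had 0.06, neither of them called, and the lowest of the list was Eomes at -0.08. Gzmb was highest on Sox17ed/ed replicate 2 and Gata3 on replicate 3.

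Of 10 uterine epithelial markers 5 were called (12.5% of all genes tested were), with Krt19 (2.10), Krt7 (1.46), Krt8 (0.69) and Cdh1 (0.59) higher and Cldn3 (-1.16) lower, and their summed signal was 47806 to 49605 on the Sox17f/f arrays and 50802 to 62859 on the Sox17ed/ed arrays. Of 6 tested markers of stratified squamous epithelium, 3 rose (6.04% of all genes tested were called as higher). Krt15 and Krt5, keratins of basal cells, were not well above background on any Sox17f/f array and were at least 62.8-fold and at least 5.25-fold higher, and Col17a1 rose by 0.83. Krt5 read 7.80, 4.94 and 5.33 on the Sox17ed/ed arrays, and without replicate 1 it was at least 2.83-fold higher. Their summed signal went from 2524 to 3033 on the Sox17f/f arrays and from 3341 to 3835 on the Sox17ed/ed arrays. The defining factor Trp63, the brightest of them, had -0.12 (limma adjusted p = 0.468), read from its brightest probe. By qRT-PCR the study found more Trp63 mRNA in Sox17ed/ed than in Sox17f/f uteri, a difference that this probe did not show. Without Trp63 the sum was 87.5 to 112 against 657 to 1554. The part of lymphocyte or epithelial content in the Gata3 values was not tested.

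GATA1 is known for red cells, megakaryocytes, mast cells and eosinophils. Its probe read 5.42, 5.48 and 5.34 on the Sox17f/f arrays and 5.49, 6.41 and 6.22 on the Sox17ed/ed arrays. Sox17ed/ed replicate 1 lay with the Sox17f/f arrays, level with the highest of them to the first decimal, and the other Sox17ed/ed arrays stood apart. The log2 fold change was 0.62 (SE 0.23, 95% interval 0.05 to 1.19, limma adjusted p = 0.120), and without Sox17ed/ed replicate 1 it was 0.90 (limma adjusted p = 0.00589). That array was the lowest of its genotype. Leaving out any of the other arrays gave limma adjusted p values from 0.207 to 0.265, with 0.44 as the fold change without Sox17ed/ed replicate 2. Normexp correction gave 0.37, under 1.4-fold.

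The same split of the Sox17ed/ed arrays was seen in 3 receptor genes of eosinophils, named here after their values were seen. Siglecf, an inhibitory lectin of eosinophils, read 6.49, 6.32 and 6.12 on the Sox17f/f arrays and 6.10, 7.42 and 7.17 on the Sox17ed/ed arrays. The eotaxin receptor Ccr3 read 7.19, 6.71 and 6.67 against 6.70, 7.87 and 7.73. The interleukin 5 receptor gene Il5ra read 5.70, 5.82 and 5.55 against 5.75, 6.76 and 6.18. In all 3 genes Sox17ed/ed replicates 2 and 3 were above every Sox17f/f array and replicate 1 was not, and replicate 2 was the highest of the 6 arrays, as for Gata1. None of the 3 was called, with log2 fold changes of 0.59, 0.58 and 0.54 and limma adjusted p values of 0.282, 0.274 and 0.188.

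The eosinophil list as a whole did not move one way. Of its 8 tested genes (12.5% of all genes tested were called) 1 rose, the granule protein gene Prg2 (1.27, limma adjusted p = 0.0153), and 1 fell, the lipoxygenase Alox15 (-1.93, limma adjusted p = 0.0261), which other cells also make. Prg2 was high on all Sox17ed/ed arrays, at 6.69, 6.90 and 6.76 against 5.10, 5.40 and 6.06, and so did not follow the split of Gata1. The defining granule gene Epx was on no array well above background, and the ribonuclease genes Ear1, Ear2 and Ear6 had log2 fold changes from -0.18 to -0.0046. The summed signal of the list was 1421 to 3797 on the Sox17f/f arrays and 1195 to 1626 on the Sox17ed/ed arrays, and without Alox15, its brightest gene, 640 to 1046 against 822 to 1251. The part of eosinophil number in the Gata1 values was not tested.

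**Figure D3:**
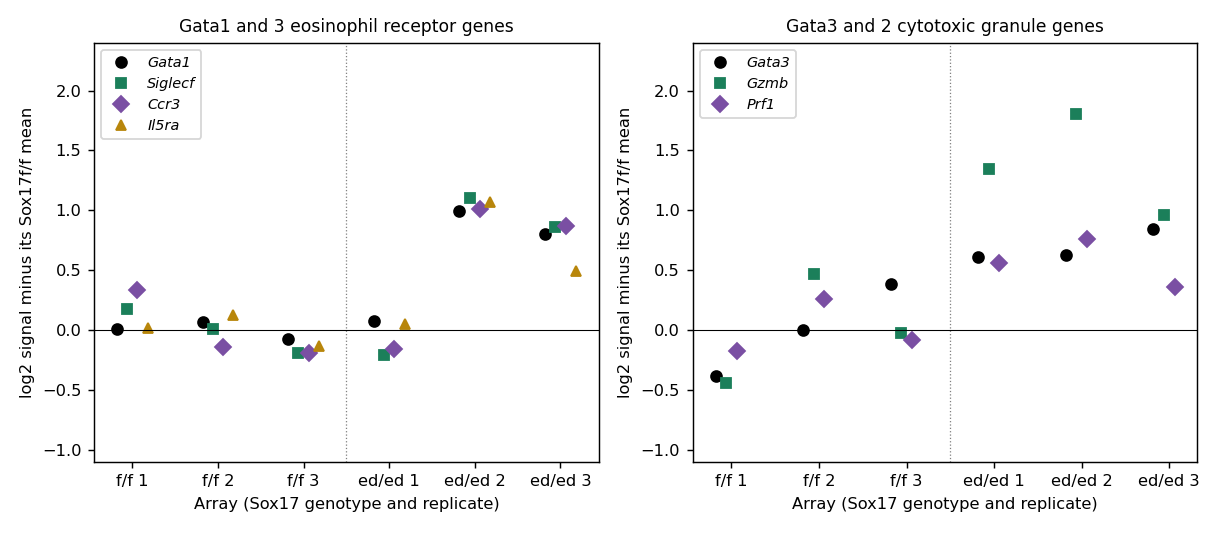
Log2 signal on each of the 6 arrays (horizontal axis) minus the mean of the Sox17f/f arrays (vertical axis), for Gata1 with Siglecf, Ccr3 and Il5ra on the left and for Gata3 with Gzmb and Prf1 on the right. Siglecf, Ccr3 and Il5ra were picked after their values were seen, and Gzmb and Prf1 are among the called genes of their list. Not drawn are Prg2, Alox15 and the Ear genes, which did not follow the split of Gata1, nor Cd3e, Cd4 and Eomes, which were not called. On the left Sox17ed/ed replicate 1 sits with the Sox17f/f arrays and replicates 2 and 3 sit above them for all 4 genes; on the right all 3 Sox17ed/ed arrays sit above 0 for all 3 genes.

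The other blood lineages that GATA1 serves were measured beside it. Of 8 tested erythroid genes limma called 0 (2 had an unadjusted p under 0.05), against 12.5% of all genes tested. At a limma adjusted p under 0.05, 1 was lower, Tal1 (-0.40, limma adjusted p = 0.0199), against 18.9% of all genes tested in either direction. The lowest was Alas2 at -1.03 (limma adjusted p = 0.0734) and the highest the globin Hbb-bt at 0.23 (limma adjusted p = 0.624). The summed signal was 8695 to 14642 on the Sox17f/f arrays and 9587 to 13867 on the Sox17ed/ed arrays. Klf1 was on no array well above background. Of 4 tested megakaryocyte and platelet genes 2 fell (6.47% of all genes tested were called as lower), among them the integrin Itga2b (-0.83, limma adjusted p = 0.0282). The defining platelet genes Ppbp and Gp1ba were not well above background on any array, and the summed signal, at least 90.8% of it from Pf4, was 1815 to 2029 against 1507 to 1949. Of 6 tested mast cell genes 2 fell, again against 6.47%, Kit by a log2 fold change of -1.86 (limma adjusted p = 0.000237) and Fcer1a, which was at least 1.32-fold lower. Kit is also made outside mast cells, and the protease genes Cpa3, Tpsb2, Cma1 and Mcpt4 had log2 fold changes from -0.53 to -0.21 without being called. The summed signal of the mast cell list was 2267 to 2959 on the Sox17f/f arrays and 1217 to 1600 on the Sox17ed/ed arrays, and without Kit 1121 to 1581 against 923 to 1252.

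Markers of other cells known to make Runx1 were read beside it. Of 9 tested macrophage and leukocyte genes 3 fell (6.47% of all genes tested were called as lower), Cd14 (-1.15), Fcgr1 (-1.19) and Mrc1 (-0.88), while the receptor Csf1r had 0.41 (limma adjusted p = 0.0162, under 1.4-fold) and the pan-leukocyte gene Ptprc had -0.06 (limma adjusted p = 0.606). Their summed signal was 20575 to 20989 on the Sox17f/f arrays and 21072 to 22575 on the Sox17ed/ed arrays. Without Csf1r, the brightest gene of the list, the direction turned, with 12764 to 13411 against 11383 to 12206. Of 10 endothelial genes 9 had a log2 fold change below 0, with a median of -0.34, and the arrays of the genotypes did not overlap for 9, against 40.6% of all genes tested. At a limma adjusted p under 0.05, 7 were lower and 1 higher, against 18.9% of all genes tested in either direction. Vwf (-0.84) and Esam (-0.57) fell past the thresholds, Cldn5 (0.52) rose, and Cdh5 (-0.43, limma adjusted p = 0.00394), Tie1 (-0.36), Kdr (-0.37), Pecam1 (-0.29) and Sox18 (-0.26) were lower at less than 1.4-fold. The summed signal of the list was 23906 to 28102 on the Sox17f/f arrays and 19292 to 20706 on the Sox17ed/ed arrays, and without Vwf, its brightest gene, 16865 to 17968 against 14926 to 15704. The part of leukocyte or endothelial content in the Runx1 values was not tested.

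GATA4, GATA5 and GATA6 are known from heart, gut and gonad. The Gata4 probe was on no array well above background and was not tested, at 2.18 and 2.16 on Sox17f/f replicates 1 and 3 and 3.01, 2.73 and 2.28 on the Sox17ed/ed arrays, with the spot of Sox17f/f replicate 2 left out as an outlier. The Gata5 probe read 7.34, 7.30 and 7.33 on the Sox17f/f arrays and 7.44, 7.30 and 7.37 on the Sox17ed/ed arrays. These values overlapped and were tight, with a log2 fold change of 0.045 (limma adjusted p = 0.679) and an interval from -0.11 to 0.20, inside 1.4-fold either way. The Gata6 probe read 8.60, 8.64 and 8.79 on the Sox17f/f arrays and 8.40, 8.00 and 8.57 on the Sox17ed/ed arrays. All Sox17ed/ed arrays were lower, replicate 3 by little and replicate 2 by most. The log2 fold change of -0.36 (SE 0.15, 95% interval -0.73 to 0.02, limma adjusted p = 0.164) did not pass, and without Sox17ed/ed replicate 2 it was -0.19.

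Smooth muscle, where GATA6 is known to act, and ovary, where GATA4 and GATA6 are abundant, were read beside them. Of 8 smooth muscle genes 1 fell (6.47% of all genes tested were called as lower), Actg2 (-0.64, limma adjusted p = 0.00794). Of the 8, 6 had a log2 fold change below 0, with a median of -0.28 over the list. The arrays of the genotypes did not overlap for 5, against 40.6% of all genes tested. At a limma adjusted p under 0.05, 2 were lower, against 18.9% of all genes tested in either direction. The summed signal was 494466 to 546211 on the Sox17f/f arrays and 368433 to 443909 on the Sox17ed/ed arrays. Of 9 ovarian genes 4 could be tested and limma called 0 (0 had an unadjusted p under 0.05), against 12.5% of all genes tested. The granulosa genes Amh and Cyp19a1 were not well above background on any array. The summed signal of the list was 17242 to 18962 against 13933 to 17873, at least 96.5% of it on every array from Foxl2. Without Foxl2 it was 402 to 439 against 428 to 491. Of 8 stromal genes limma called 0 (5 had an unadjusted p under 0.05), against 12.5% of all genes tested. At a limma adjusted p under 0.05, Dcn (-0.42, limma adjusted p = 0.0172) was lower and Hoxa10 (0.34, limma adjusted p = 0.0139) higher. Of all genes tested 18.9% passed that cut in either direction. The summed signal of the stromal list was 210861 to 221027 against 175560 to 194485. At least 43.8% of that sum came from Dcn on every array, and without Dcn the ranges overlapped, at 97137 to 108547 against 92797 to 101435. The part of smooth muscle content in the Gata6 values was not tested.

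GATA factors work through cofactors, and 20 of 23 listed ones could be tested. Of these limma called 0 at the thresholds used here (12.5% of all genes tested were), 8 had an unadjusted p under 0.05, and 3 had a limma adjusted p under 0.05 at less than 1.4-fold, against 18.9% of all genes tested. Zfpm1 (FOG1), the zinc-finger cofactor of GATA1, read 10.80, 10.89 and 10.77 on the Sox17f/f arrays and 11.22, 11.17 and 11.32 on the Sox17ed/ed arrays, a log2 fold change of 0.42 (limma adjusted p = 0.0114). Tal1, which joins GATA1 and GATA2 on DNA in blood cells and endothelium, read 9.26, 9.03 and 9.23 against 8.77, 8.80 and 8.74, or -0.40 (limma adjusted p = 0.0199). Srf, a partner of the cardiac GATA factors, had -0.45 (limma adjusted p = 0.0122) and was the lowest of the list. The genotypes did not overlap for any of these 3, nor for 7 others of the 20, against 40.6% of all genes tested. Zfpm2 (FOG2), the cofactor of GATA4 to GATA6, had -0.37 (limma adjusted p = 0.0516). Klf1, Nkx2-5 and Tbx5 were not tested. The median over the list was -0.10, and over all genes tested -0.0016.

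Of 27 cofactors, corepressors and regulators of RUNX proteins, all tested, 1 was called (12.5% of all genes tested were). It was Tle2, a Groucho corepressor, which read 9.39, 9.46 and 9.53 on the Sox17f/f arrays and 10.34, 10.12 and 10.39 on the Sox17ed/ed arrays. The log2 fold change was 0.82 (SE 0.09, limma adjusted p = 0.00211), higher on all 3 Sox17ed/ed arrays. Ets1, which binds DNA together with RUNX1 (-0.46, limma adjusted p = 0.0162), had an adjusted p under 0.05 at less than 1.4-fold. Ets1 was also the lowest of the list, and the highest after Tle2 was Hes1 at 0.49 (limma adjusted p = 0.618), which 3 of the 6 arrays measured well above background. The other Groucho genes Tle1, Tle3, Tle4 and Tle5 had log2 fold changes of -0.04, -0.27, -0.13 and 0.20 and were not called. The median over the list was 0.0005.

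**Figure D4:**
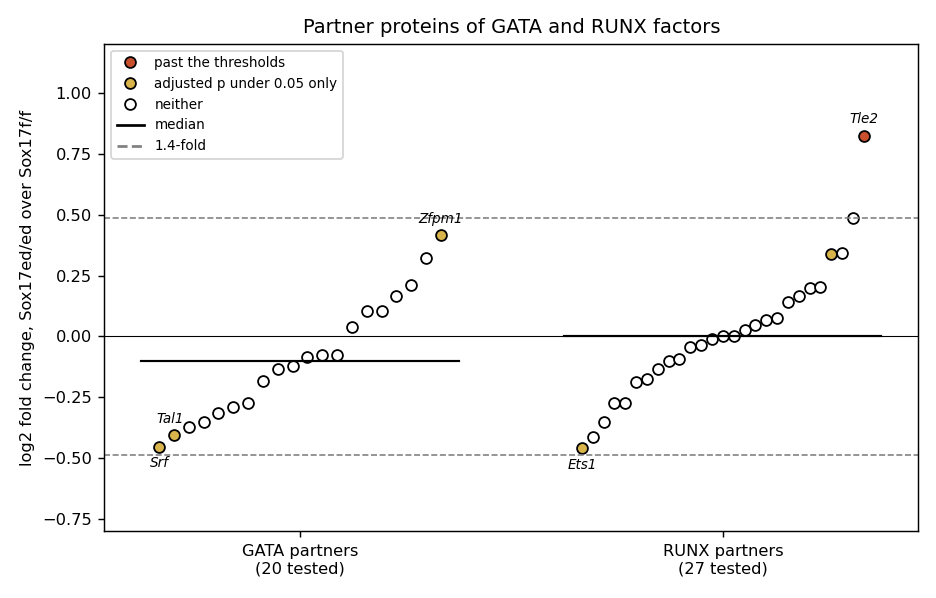
Log2 fold change (vertical axis) of the tested partners of GATA factors on the left and of RUNX factors on the right, each sorted by value, with the median as a line and 1.4-fold as dashed lines; filled points passed a threshold. Tle2 at 0.82 is the one partner past the thresholds, and Zfpm1, Tal1, Srf and Ets1 are among those that have an adjusted p under 0.05 within 1.4-fold.

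**Figure D5:**
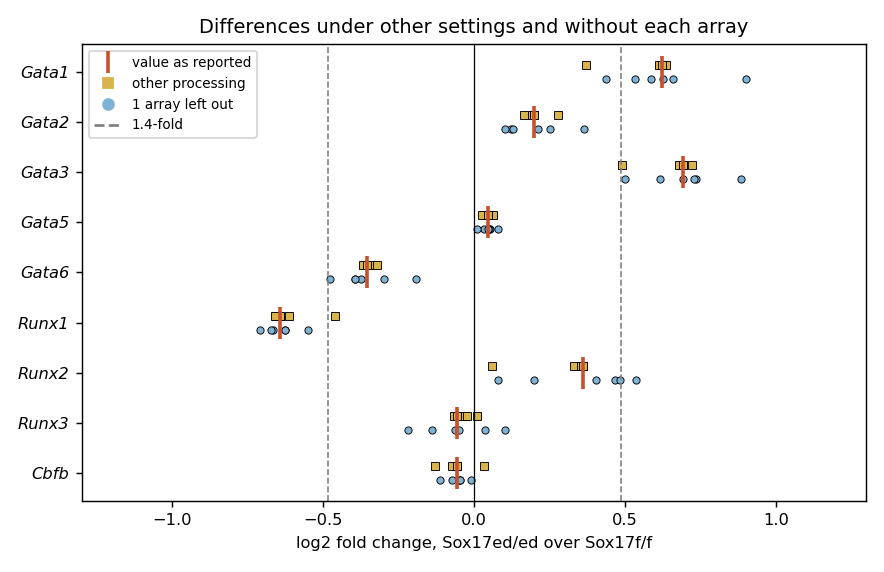
Log2 fold change (horizontal axis) of the 9 tested genes as reported, under other processing and with 1 array left out at a time; dashed lines mark 1.4-fold. Runx1 stays between -0.71 and -0.46, Gata3 between 0.49 and 0.88 and Gata1 between 0.37 and 0.90, and the values of Runx3 and Cbfb lie on both sides of 0.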

How the data were processed

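RNA of whole uteri from 3 Sox17f/f and 3 Sox17ed/ed mice was read on 6 Agilent arrays in 1 colour, 1 sample to an array, and grouped by the labels. The deposited spot intensity used is the processed signal of Feature Extraction 11.0.1.1, as the scanner files name it (the submitters' processing notes give 9.1). That software had subtracted background and removed trends within each array, and the authors deposited it with no normalization between arrays; values near background are therefore uncertain on a log scale. The deposited processed values lay within 0.191% of its mean over the spots of a probe.

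From the files, 0 spots were saturated, control spots and 169 to 302 outlier spots per array were left out, log2 intensities were quantile normalized, and spots of a probe were averaged. RefSeq accessions named 26582 probes; GRCm38.p6 names were used without gene coordinates, because the array design is on another build. The probe with the highest mean signal among those past the filter stood for a gene. Genes were tested with limma 3.58.1 in R 4.3.3 (lmFit, eBayes, Benjamini-Hochberg over all genes tested), and each probe in a second fit over all probes. The code was tested on simulated data. Tallies and plots used Python 3.11.15, pandas 2.3.3, numpy 2.4.6 and matplotlib 3.10.9. The number of arrays limits the precision.

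The members, gene lists and tests were chosen with earlier results of these data known. Named were all members, Sox17, of each other list the genes past the thresholds and the highest and lowest of the rest, and the 3 genes most like each called member; other genes of the lists were named with their values seen. The alternatives were a 75th percentile shift, normexp with an offset of 50, no filter, a filter on all 6 arrays, averaging the probes of a gene, an eBayes trend, the deposited processed values, the replicate block, an adjusted p, a 2-fold threshold, the other probe, and each array left out. Normexp used the median spot signal, since the scanner files hold no mean. Same-numbered arrays did not deviate together (correlations of 0.0635, -0.113 and -0.000107), so the block is given only among the alternatives. Sums of a list without its brightest gene were added after the values were seen. The study's other experiments were not analysed here. Some genes of the lists are counted but not reported by name here.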

Additional observations from a re-analysis of the deposited data

How the results depend on the processing

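Of 162 values of the 9 tested genes and Sox17 under the alternatives, 150 kept their direction and their side of the thresholds, 2 no longer passed, 6 passed newly and 4 changed sign. The count of 150 overstates stability. The other filters, the eBayes trend, the replicate block, the adjusted p and the 2-fold threshold left these fold changes as they were, so no sign could turn there. The 2-fold threshold could let no further gene pass. The deleted gene Sox17 gave 17 of the values, all kept. Both that no longer passed were Runx1, at -0.46 after normexp correction and at -0.64 under a 2-fold threshold. Those that passed newly were Gata1 without Sox17ed/ed replicate 1, and Gata3 after normexp correction (0.49, limma adjusted p = 0.0269), with the filter on all 6 arrays (0.0448), with an eBayes trend (0.0288), with the replicate block (0.0412) and without Sox17f/f replicate 3. The sign changed for Runx3 without Sox17f/f replicate 1 (0.036), without Sox17ed/ed replicate 1 (0.10) and with its other probe (0.011), and for Cbfb after normexp correction (0.031). Runx3 lay between -0.22 and 0.10 with each array left out. The cause was not tested.

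The count of members past the thresholds, 1, was 2 with the filter on all 6 arrays, with the eBayes trend and with the replicate block, 0 at 2-fold, and 1 to 2 with each array left out. The count of member probes, 2, was 1 after normexp correction, 0 at 2-fold, and 2 to 3 with each array left out. The count of GATA partners, 0 (3 at an adjusted p under 0.05), was 1 with a 75th percentile shift and with the mean of the probes of a gene, and 0 to 1 with each array left out, 1 without Sox17ed/ed replicate 3. The count of RUNX partners, 1, was 3 at an adjusted p under 0.05, 0 at 2-fold, and 1 to 2 with each array left out, 2 without Sox17f/f replicate 1, Sox17f/f replicate 3 or Sox17ed/ed replicate 2. The network count of 10 was 11 with the mean of the probes of a gene, and 8 with the filter on all 6 arrays and at 2-fold. It stayed at 10 with each array left out. Over all genes 1857 passed, 2808 at an adjusted p under 0.05, 817 at 2-fold and 1665 to 2034 with each array left out.

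Gata4 and 1 Runx2 probe, near background, gave no tested value, and Runx2 gave none with the filter on all 6 arrays.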
